A study of Homo sapiens with 2 samples.

Results

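Mid late intervals are the stretches of nascent strand DNA that the authors placed in the fourth of 6 replication timing classes, between mid early and late. They were taken from the authors' mid late list, 1 interval per name, on chromosomes 1 to 22 and X, which gave 36062 of the 161770 intervals in all 6 classes there. The list had 36095 names, each on a single line, and the other 33 lay on chromosome Y. The data come from 2 libraries of U2OS, a human osteosarcoma cell line labelled WT, which was held at the G1/S border by a double thymidine block and collected at the 2 hour point after release. All 6 classes were thus sampled at 1 time point, and whether mid late DNA was replicating then was not measured. Differences between classes below are not differences at each class's own time of replication. Both libraries form 1 group and enter every list as their intersection, so no untreated, unsynchronised or undigested sample was analysed here and no value below has an error between libraries. The fold enrichment of an interval is the one the authors' list gives for the replicate 1 peak that shares most bases with it. Of the mid late intervals, 27 shared no base with a listed peak and have no fold. Read depth is unknown, and no label says whether the libraries came from separate cultures.

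Replication of human chromosomes starts at many origins, each licensed in G1 phase and used, if at all, at some point of S phase. Large domains copy their DNA at characteristic times, with gene-rich, open chromatin tending to replicate early and compact, gene-poor chromatin late. The middle of this programme includes the stretches that join early and late domains. Nascent strand sequencing recovers short new DNA that still carries an RNA primer, since lambda exonuclease digests strands without one, and a peak marks DNA enriched in such strands. Which genes or sequence features the mid late intervals overlap was not analysed here.

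The mid late class, smaller than mid early and early, made up 22.3% of all intervals (exact 95% binomial interval 22.1% to 22.5%, which covers counting error only and treats intervals as independent) and 31.3 Mb of sequence. A mid late interval had a median width of 537 bp, with quartiles of 286 and 1009 bp. Intervals of 200 to under 500 bp were the most common size group at 35.2%, followed by 500 to under 1000 bp at 27.7% and 1000 to under 3000 bp at 21.4%. Intervals under 200 bp made up 11.7%, and those of 3000 bp or more 3.94% (1422 intervals). Such broad intervals were 2.84% of very early, 4.08% of early, 4.90% of mid early, 1.94% of late and 1.26% of very late ones. The median fold enrichment was 4.68, with quartiles of 3.77 and 6.27, and 1 in 10 intervals exceeded 8.81. Wider intervals had higher folds: the median was 3.91 under 200 bp, 4.27 from 200 to under 500 bp, 4.67 from 500 to under 1000 bp, 5.78 from 1000 to under 3000 bp and 7.84 at 3000 bp or more. Across the 36035 mid late intervals with a fold, the rank correlation of width and fold was 0.41 (Spearman), a description of 1 peak set in which width and fold come from overlapping peaks. Peaks shared by both libraries broke 5326 mid late intervals (14.8%) into several pieces, up to 17. The share was 13.3% in very early, 16.0% in early, 17.6% in mid early, 10.7% in late and 8.29% in very late intervals.

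Chromosomes differed widely in how many of their intervals were mid late. The share was lowest on chromosome 17 at 10.5% (1031 of 9828 intervals), followed by chromosome 19 at 16.1%, chromosome 3 at 16.4% and chromosome 22 at 17.0%. It was highest on chromosome X at 40.2% (916 of 2280), followed by chromosome 13 at 37.1%, chromosome 4 at 36.3% and chromosome 18 at 34.3%. Chromosomes 17, 19 and 22 are known as gene-rich and chromosomes 4, 13 and 18 as gene-poor. Chromosome 3, also among the lowest shares, and chromosome X, the highest, are in neither group. Gene density was not measured here, and its relation to the share was not tested. Mid late was the most common class on 5 chromosomes, mid early on 12 and early on 6. Those 5 were chromosomes 4, 8, 13, 18 and X. Chromosome 1 held the most mid late intervals (3292) and chromosome 21 the fewest (343). Chromosome 3 had the narrowest mid late intervals, with a median of 422 bp, and chromosome 22 the widest, with 736 bp. Median folds lay between 4.46 (chromosome 6) and 4.94 (chromosome 22).

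**Figure D1:**
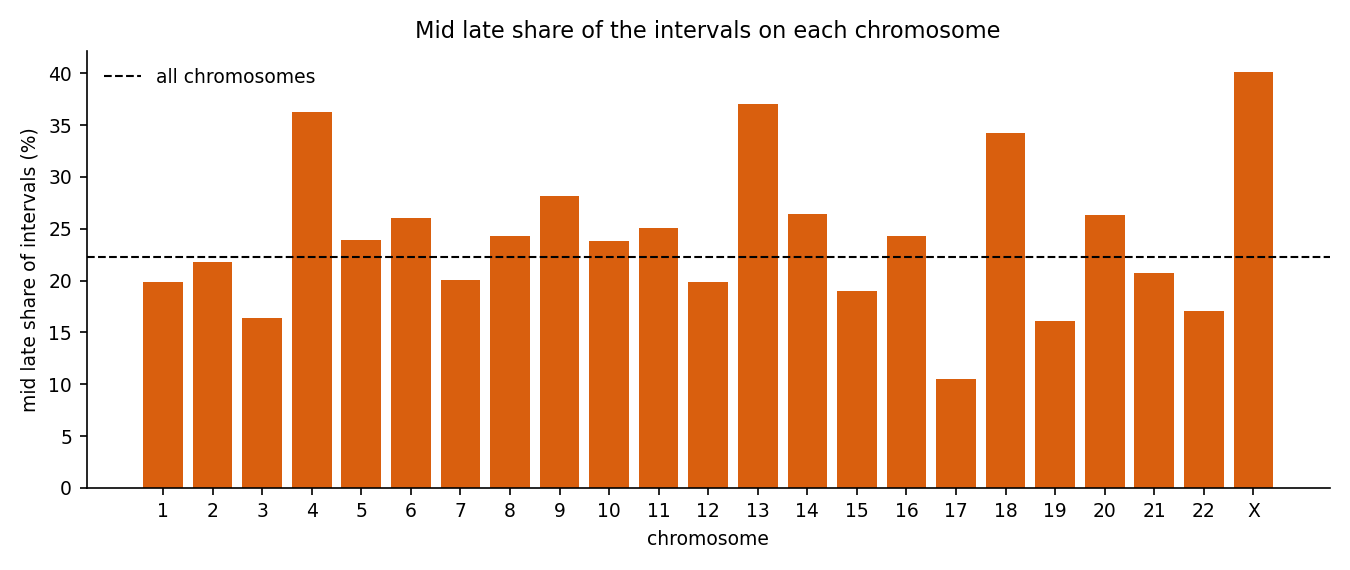
Bars give the share of intervals (%) on each chromosome that are mid late, and the dashed line the share over all chromosomes, 22.3%. Chromosome 17 stands lowest at 10.5% and chromosome X highest at 40.2%.

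Over whole chromosomes, mid late intervals stood between their neighbouring classes in width, enrichment and spacing. Taken singly, 17 of 23 chromosomes showed this order for width, and 18 each for fold and spacing. It did not extend to all classes: very early intervals averaged 511 bp, 4.58-fold and 3914 bp apart. The median width of mid late intervals was 538 ± 70.9 bp, against 592 ± 89.1 bp for mid early and 450 ± 55.0 bp for late intervals (mean ± SD of chromosome medians, n = 23 chromosomes). Mid late intervals were 0.91-fold as wide as mid early ones, and 20 of 23 chromosomes showed the narrower median (permutation test by random sign flips over chromosomes, two-sided, adjusted p = 4.0e-05). They were 1.19-fold as wide as late ones, and wider on 20 of 23 (permutation test, adjusted p = 4.0e-05). In this test the sign of each chromosome's log2 ratio is flipped at random. Chromosomes are not biological replicates, so it asks only whether a difference recurs along the genome of 1 peak set, and p-values were adjusted over 10 comparisons.

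Enrichment differed by less. The median fold was 4.69 ± 0.14 in mid late, against 4.83 ± 0.26 in mid early and 4.44 ± 0.18 in late intervals (mean ± SD, n = 23). It was lower than in mid early on 19 of 23 chromosomes, by 0.97-fold (permutation test, adjusted p = 7.5e-04), and higher than in late on 22 of 23, by 1.06-fold (permutation test, adjusted p = 4.0e-05). Restricted to −log10 q values of 5 and above, the step from mid early no longer passed (log2 ratio −0.019, permutation test, adjusted p = 0.059). The step from late passed there at a log2 ratio of 0.035, against 0.077 over all values (permutation test, adjusted p = 0.0213). The −log10 q had a median of 5.09 ± 0.43 in mid late intervals, against 5.48 ± 0.64 in mid early and 4.53 ± 0.44 in late ones, and passed the permutation test against both (adjusted p = 1.1e-04 and 4.0e-05). Fold and −log10 q belong to the same replicate 1 peak and are not independent measures.

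Mid late intervals were sparser than mid early and denser than late ones. Adjacent intervals of 1 class, with none of another class between them, were separated by a median of 2952 ± 1080 bp for mid late, against 2348 ± 712 bp for mid early and 5100 ± 2874 bp for late (mean ± SD, n = 23). Mid late intervals lay 1.23-fold farther apart than mid early ones, with a larger median on 20 of 23 (permutation test, adjusted p = 5.0e-05). They lay at 0.61-fold the distance of late ones, closer on 21 of 23 (permutation test, adjusted p = 4.0e-05). Counted to the adjacent interval whatever its class, the log2 ratio to late was −1.24 in place of −0.71, and that to mid early 0.30 in both countings. Without the outer 5 Mb of each chromosome the log2 ratio to mid early was 0.57. Of the 32415 distances between mid late neighbours, 27.1% were under 1 kb and 859 exceeded 100 kb. Mid early, with 42870 such distances, had 374 above 100 kb, and late, with 7326, had 528.

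**Figure D2:**
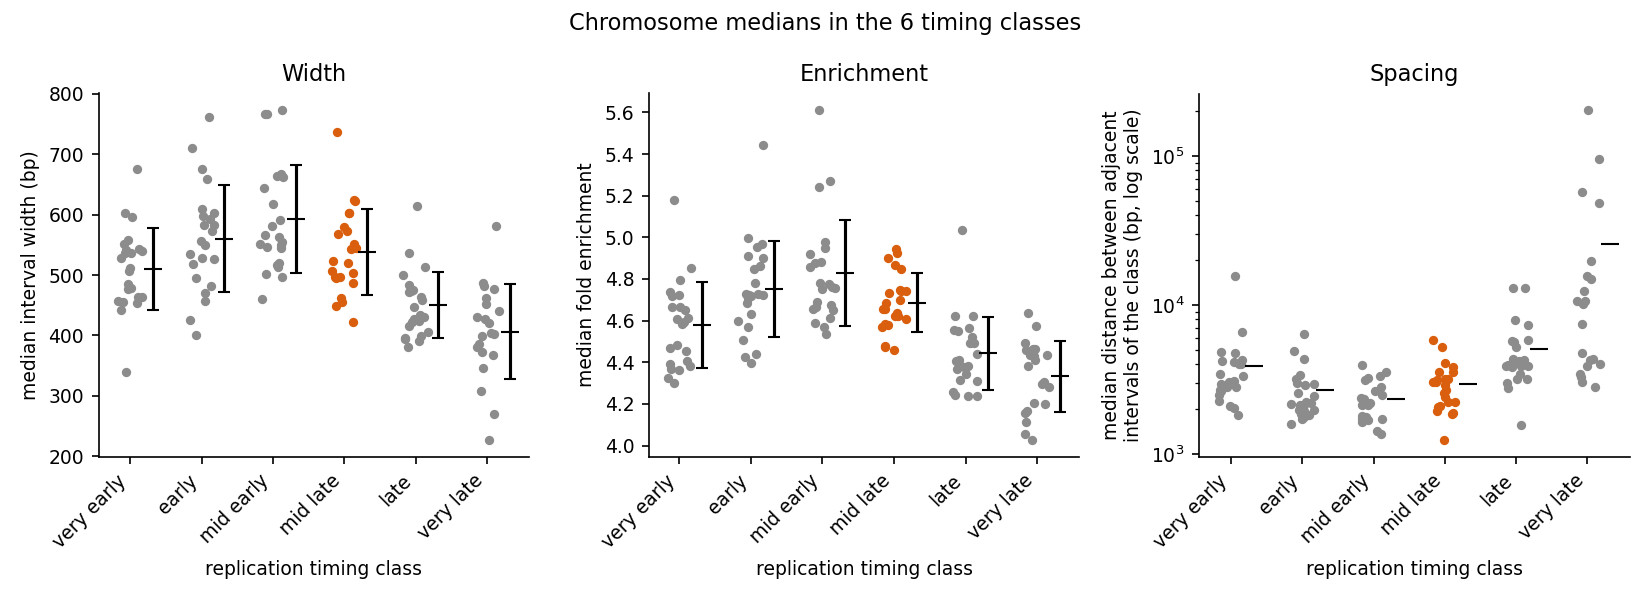
Each point is the median of 1 chromosome in 1 timing class for interval width (bp), fold enrichment and distance between adjacent intervals of the class (bp, log scale), and black marks give the mean with SD (mean alone for spacing). Mid late points (orange) centre on 538 bp, 4.69-fold and 2952 bp, between mid early and late.

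The differences in width and enrichment did not hold inside 1 Mb windows that contain both classes. Windows with at least 5 mid late and 5 mid early intervals numbered 811 in the width comparison and held 27107 mid late intervals, or 75.2% of the class. Within them, with the ratios averaged over windows, mid late intervals were 1.05-fold as wide as mid early ones. They were wider on 15 of 23 chromosomes, the opposite direction (permutation test, unadjusted p = 0.0102), which is not counted as passing. Their fold was 1.00-fold that of mid early intervals and did not pass (permutation test, unadjusted p = 0.836). The log2 ratio was 0.0020 ± 0.046 (mean ± SD, n = 23 chromosomes) against −0.042 ± 0.053 over whole chromosomes. Against late intervals, in 284 windows, neither width (log2 ratio −0.039 ± 0.22, unadjusted p = 0.423) nor fold (0.0089 ± 0.061, unadjusted p = 0.504, permutation tests, n = 22) passed. In windows of 500 kb, mid late intervals were 1.08-fold as wide as mid early ones (unadjusted p = 7.0e-05) and 0.91-fold as wide as late ones (unadjusted p = 0.00715, permutation tests). Both were opposite to the comparison over whole chromosomes. These window comparisons were chosen after the data were examined and cover only windows shared by both classes. Their p-values are given unadjusted, because the adjustment made had ranked them together with whole-chromosome comparisons of spacing and shared bases.

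Mid late intervals outside the shared 1 Mb windows were narrower and less enriched. Other windows lack 5 intervals of at least 1 of these 2 classes, and may still hold some of both. The 8955 mid late intervals in other windows had a median width of 407 ± 47.2 bp, against 598 ± 71.8 bp for those in windows shared with mid early (mean ± SD of chromosome medians, n = 23). Their median fold was 4.36 ± 0.17, against 4.80 ± 0.18 in the shared windows. Mid early intervals in the same shared windows had 606 ± 71.9 bp and 4.86 ± 0.23-fold, and those in other windows 566 ± 141 bp and 4.78 ± 0.34-fold. Pooled by chromosome in this way, mid late intervals of the shared windows were not wider than mid early ones. The wider mid late width above is thus seen in the average over windows only. The outer 5 Mb of the chromosomes held 31.1% of the mid late intervals in shared windows and 18.6% of those in other windows. These sets were not compared by a test. At like −log10 q, taken in 5 bins of equal number, mid late intervals were 0.94-fold as wide as mid early ones (unadjusted p = 1.1e-04) and 1.16-fold as wide as late ones (unadjusted p = 2.0e-05, permutation tests).

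**Figure D3:**
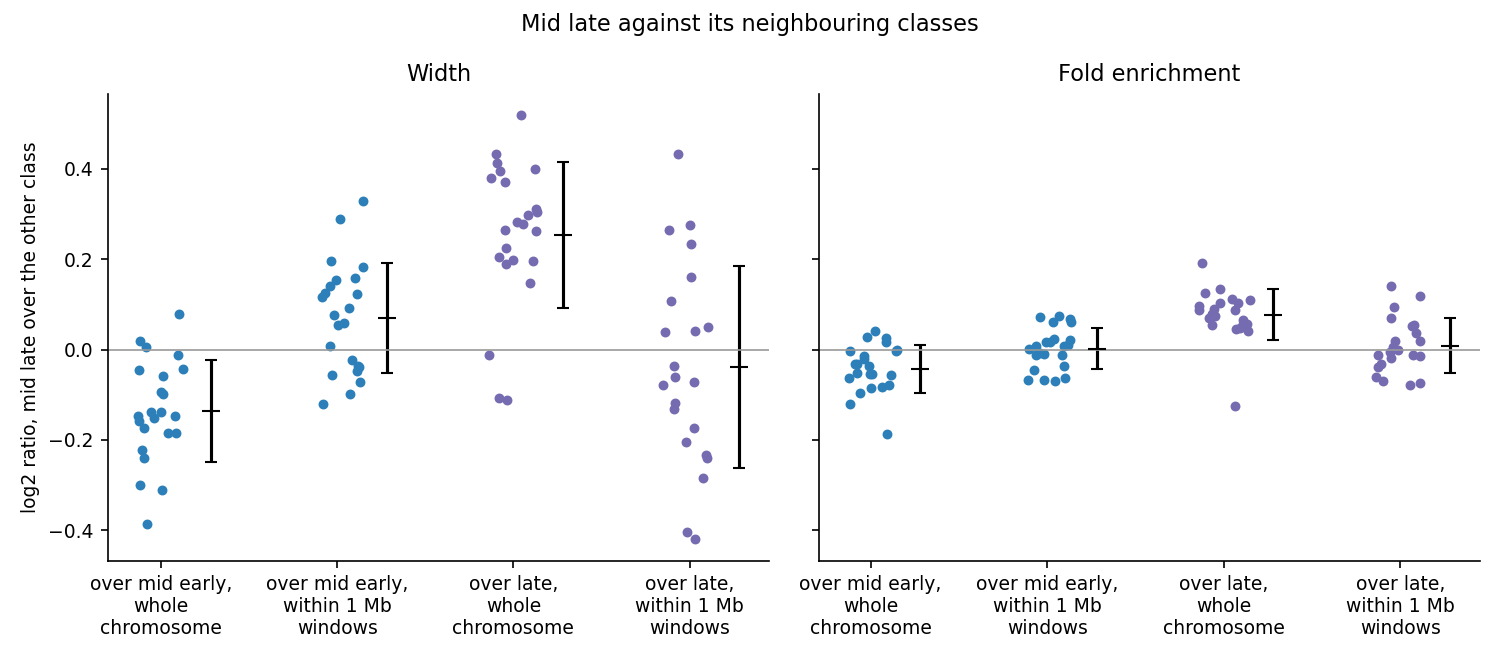
Each point is 1 chromosome's log2 ratio of mid late over mid early (blue) or late (purple), for width and fold enrichment, over the whole chromosome or averaged over 1 Mb windows that hold both classes. Black marks give the mean and SD. Over mid early, the width ratio averages −0.14 over whole chromosomes and 0.070 within windows.

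Chromosome ends were rich in mid late intervals. The outer 5 Mb, counted from the first and from the last interval of a chromosome, held 10106 mid late intervals, 28.0% of the class. The same stretches held 19.6% of mid early and 26.4% of late intervals, and 8.19% of very early ones. Mid late made up 35.7 ± 13.8% of the intervals in the outer 5 Mb, against 21.7 ± 7.03% in the rest of the chromosome (mean ± SD, n = 23 chromosomes), and the share was higher at the ends on 19 of 23 (permutation test, adjusted p = 1.6e-04 over 10 end comparisons, all chosen after the data were examined). The share was 38.2% in the outermost 1 Mb, 37.9% from 1 to 2 Mb, 34.9% from 2 to 3 Mb and 32.9% from 3 to 4 Mb. From 4 to 5 Mb it was 22.2%, near the 22.3% of the whole set, and from 5 to 10 Mb 26.1%. It was 16.3% from 10 to 20 Mb, 18.0% from 20 to 40 Mb and 20.6% beyond 40 Mb. Mid early intervals were also frequent at the outermost positions. They made up 34.6% in the first 1 Mb, below mid late, 38.6% from 1 to 2 Mb, above mid late, and 28.1% beyond 40 Mb.

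Individual ends varied widely. At the last 5 Mb of chromosome 18, 459 of 652 intervals (70.4%) were mid late, against 25.3% in the rest of that chromosome. The last 5 Mb of chromosome 20 had 612 of 1038 (59.0%), against 19.8% in its rest. Both ends of chromosome 12 were rich in mid late intervals, with 48.3% and 45.1%, against 12.4% between them. Other ends held few. The first 5 Mb of chromosome 19 had 32 of 1300 (2.46%), and the last 5 Mb of chromosome 17 had 78 of 1304 (5.98%). On 5 chromosomes (13, 14, 15, 21 and 22) the first intervals lie beyond a short arm that is mostly absent from the assembly, so the first stretch is not a chromosome tip.

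Mid late intervals near the ends were also wider, more enriched and closer together than those of the interior. Their median width was 764 ± 164 bp in the outer 5 Mb, against 476 ± 89.1 bp in the rest, 1.59-fold, and was larger on 22 of 23 (permutation test, adjusted p = 5.0e-05). The median fold was 5.21 ± 0.38 in the outer 5 Mb, against 4.51 ± 0.17, and was higher on 23 of 23 (permutation test, adjusted p = 5.0e-05). At −log10 q values of 5 and above, the log2 ratio of folds was 0.107 in place of 0.205 and passed (permutation test, adjusted p = 1.0e-04). The median spacing was 1747 ± 687 bp in the outer 5 Mb, against 4679 ± 2842 bp, and shorter on 22 of 23 (mean ± SD, n = 23, permutation test, adjusted p = 5.0e-05). Intervals of 3000 bp or more made up 8.22% of the outer mid late intervals (831) and 2.28% of the others (591). The matching shares of the other classes are not given here, so this contrast is not shown to be particular to mid late.

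The contrast between ends and interior was larger in the mid late than in the mid early class. Mid early intervals had a median width of 772 ± 168 bp in the outer 5 Mb and 542 ± 103 bp in the rest. The end-to-interior ratio of widths was 1.13-fold larger in mid late than in mid early intervals and larger on 18 of 23 (permutation test of the difference, adjusted p = 0.00435). The ratio of folds was 1.04-fold larger, on 16 of 23 (adjusted p = 0.00763), and the ratio of spacings 0.65-fold as large, on 22 of 23 (adjusted p = 5.0e-05, permutation tests of the difference). At −log10 q values of 5 and above the difference in folds no longer passed (log2 0.036, permutation test, adjusted p = 0.0583). Against the late class none of the 3 differences passed, with log2 values (mean ± SD, n = 16 chromosomes) of −0.013 ± 0.46 for width, 0.045 ± 0.14 for fold and 0.46 ± 1.23 for spacing. The permutation tests gave adjusted p = 0.907, 0.253 and 0.199. The SDs of those differences were wide, and the width difference changed sign in several settings. Over whole chromosomes without the outer 5 Mb, the steps from mid late to both neighbouring classes passed the permutation test for all 5 measures.

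**Figure D4:**
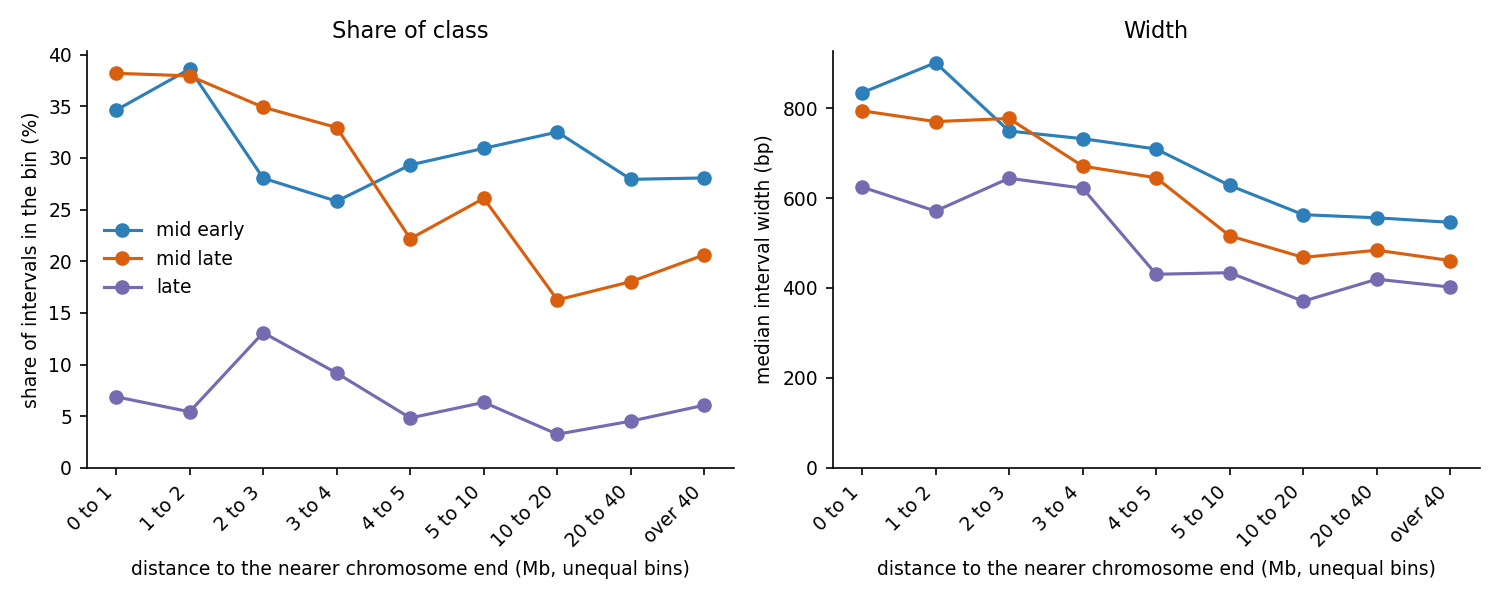
Lines give the share of each class among all intervals (%, left) and the median width (bp, right) in bins of distance to the nearer chromosome end (Mb, unequal bins) for mid early, mid late and late intervals, pooled over chromosomes. The mid late share is 38.2% in the outermost bin and 20.6% in the innermost, and its median width 794 bp and 461 bp.

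Along the chromosomes, mid late intervals came in unbroken runs, most often between mid early intervals. There were 3647 runs with a median of 5 intervals (quartiles 2 and 12) and a median span of 55.6 kb (quartiles 6.67 and 158 kb), and 708 were a single interval. Runs of 20 or more intervals numbered 500 and held 18771 intervals, 52.1% of the class. Such runs were not particular to mid late. Very early, early and mid early runs also had a median of 5 intervals, late runs 3 and very late runs 2. Runs of 20 or more held 53.6% of very early, 38.8% of early, 45.1% of mid early, 28.5% of late and 40.1% of very late intervals. Mid early intervals flanked 1858 mid late runs on both sides (50.9%), and these held 19812 mid late intervals. Another 772 runs (21.2%, 10115 intervals) joined a mid early to a late interval, 372 of them with the late interval at the higher coordinate and 400 at the lower. Late intervals flanked 658 runs (18.0%, 4262 intervals) on both sides. The other 359 runs touched an early, very early or very late interval or the end of a chromosome's intervals. Where a run was also ended at any gap above 100 kb, there were 4506 runs, and mid early flanked 38.4% on both sides. A flank is the nearest interval and not the nearest DNA, so timing between intervals is not seen. Mid early is also the largest class, with 48237 intervals in 5367 runs of its own, against 9012 intervals in 1686 runs for late. What class size adds to the flank counts was not tested.

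Mid late intervals differed by the company of their run. In runs between mid early intervals the median width was 615 ± 98.9 bp, in runs that join mid early to late 466 ± 65.0 bp and in runs between late intervals 438 ± 86.2 bp (mean ± SD of chromosome medians, n = 23). The first kind was wider than the third on 22 of 23 chromosomes. The median fold was 4.87 ± 0.24, 4.47 ± 0.14 and 4.46 ± 0.23 in the 3 kinds, and the first exceeded the third on 20 of 23. Intervals of the first kind lay 2221 ± 867 bp apart, those of the second 5502 ± 4527 bp and those of the third 6909 ± 5111 bp. The runs that touch a late interval on one side or on both overlapped in all 3 measures. These values are descriptions without a test. The shares of their intervals in the outer 5 Mb were 28.0%, 26.0% and 35.1%.

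**Figure D5:**
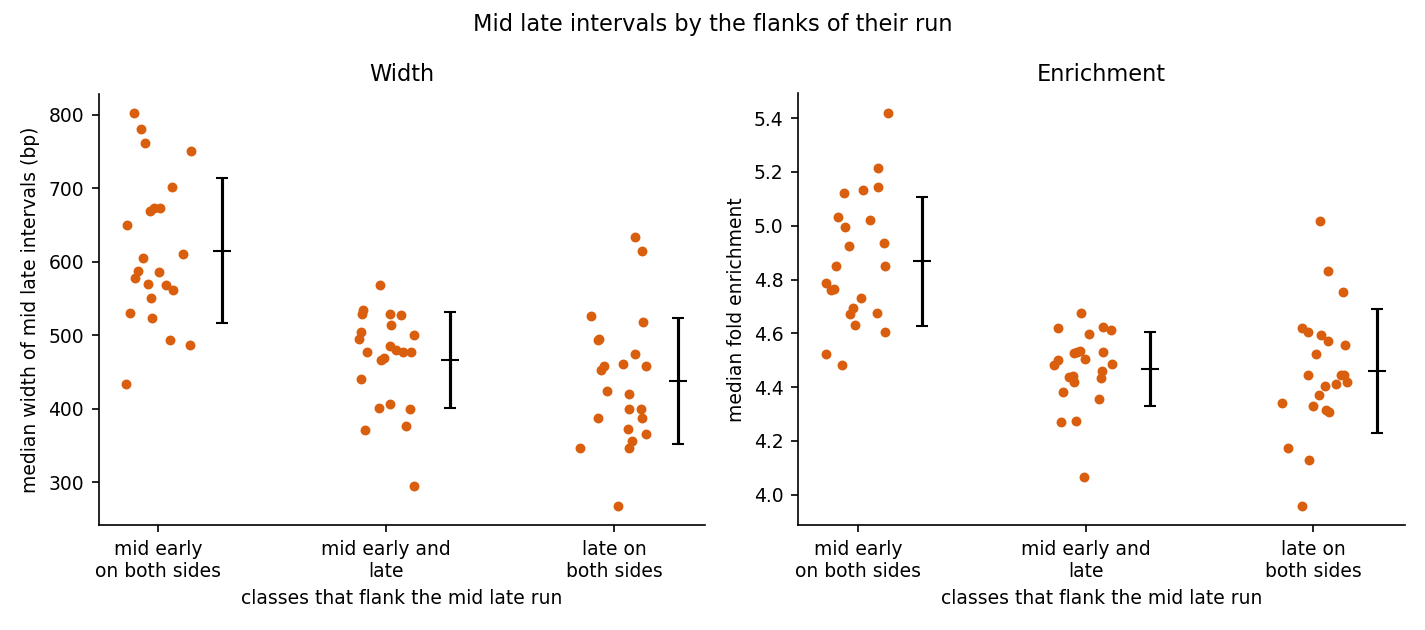
Each point is 1 chromosome's median width (bp) or fold enrichment of mid late intervals, by the classes that flank their run, with the mean and SD in black. Intervals in runs between mid early intervals average 615 bp and 4.87-fold, and those in the other kinds of run 466 and 438 bp and 4.47- and 4.46-fold.

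The borders of the runs were narrower than their inside. In runs of 3 or more intervals, the 4964 first and last intervals had a median width of 463 ± 76.9 bp, against 569 ± 67.2 bp for the 29476 inside (mean ± SD, n = 23), and were narrower on 23 of 23 chromosomes. Their median fold was 4.51 ± 0.18, against 4.75 ± 0.14 inside, and lower on 21 of 23. Long, dense runs supply more inside intervals, and the part of run length in this contrast was not tested. Neighbouring mid late intervals resembled each other weakly, with a rank correlation of 0.22 in width over 32415 pairs and 0.12 in fold over 32374 pairs, given as descriptions of intervals that share a region and a library.

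The fullest run held 128 mid late intervals in 373 kb on chromosome 1 from 3145153 to 3517702 (hg19), with a median fold of 5.61 and a median width of 1079 bp. The next had 126 intervals in 468 kb on chromosome 12 from 131677225 to 132144739. The third had 125 intervals in 537 kb on chromosome 7 from 157442745 to 157979309. The runs of longest span were sparse. On chromosome X from 30774411 to 34675094, 3 mid late intervals spanned 3901 kb with no interval of another class between them. On chromosome 17 from 22209150 to 25360969, 12 intervals spanned 3152 kb, and on chromosome 14 from 79768782 to 81636542, 8 spanned 1868 kb. Median folds were 5.28 in the full run of chromosome 12, 4.78 in that of chromosome 7, and 4.41, 3.83 and 4.42 in the 3 long ones.

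Mid late intervals were found in 1905 of the 2842 windows of 1 Mb that held any interval (67.0%). A window with any had a median of 8 mid late intervals, with quartiles of 3 and 22. Mid early intervals were present in 1416 of these windows (74.3%) and late ones in 832 (43.7%), and 61 windows held mid late intervals alone. Of the 2034 windows with 10 or more intervals, mid late was the majority in 486, and these held 18209 intervals, 50.5% of the class. Matching counts for the other classes are not given here, so these are not shown to be particular to mid late. The fullest windows were chromosome 22 from 47000001 to 48000000 with 191 mid late of 275 intervals, chromosome 1 from 3000001 to 4000000 with 185 of 256 and chromosome 9 from 138000001 to 139000000 with 180 of 254.

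Strong peaks were about as frequent in the mid late class as in the whole set. A fold of 20 or more was reached by 355 of 36035 mid late intervals (0.985%), against 0.9% of the intervals of all classes (1454 of 161621). Every one of the 23 chromosomes had some, from 3 on chromosome 15 to 32 on chromosome 1. Strong mid late intervals had a median width of 959 bp, with quartiles of 621 and 1678 bp. Of the 355, 185 lay in the outer 5 Mb, or 1.83% of the mid late intervals there, against 170 (0.655%) in the rest. Over all 6 classes the shares were 1.63% in the outer 5 Mb (488 of 29902) and 0.733% in the rest (966 of 131719), so strong intervals were more frequent near the ends in the whole set too. These shares were not tested. Folds of 100 or more occurred in 34 intervals of the whole set, and 11 of them were mid late.

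The 10 most enriched mid late intervals lay on 6 chromosomes, were 153 to 2322 bp wide and consisted of 1 shared piece each. The leading 3, at 319-, 256- and 234-fold, lie on chromosome 11 (76403529 to 76404655 and 6677187 to 6678021) and near the end of chromosome 18 (77671028 to 77673349). The fourth, on chromosome 2 from 3698887 to 3699039, reached 229-fold in only 153 bp, of which peaks of both libraries covered 98.0%. Chromosome 7 held the fifth, a 202-fold peak between 4756543 and 4757315. It also held the sixth, a 165-fold peak between 158898873 and 158899971, 0.184 Mb from the chromosome's last interval. Chromosome 2 had 2 more, of 132-fold (33140991 to 33141696) and 115-fold (98323258 to 98324653). Chromosome 6 had one of 120-fold (161603039 to 161603716), and chromosome 1 one of 118-fold (228369965 to 228370673). Shared pieces covered between 52.3% and 98.8% of these 10 intervals, and 4 of the 10 lay in the outer 5 Mb. Copy number and repeats at these positions were not analysed here.

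The strongest mid late interval of a chromosome had a median fold of 59.2 over the 23 chromosomes. The lowest was 35.5-fold on chromosome X (49055203 to 49056615) and the next 38.6-fold on chromosome 3 (195560114 to 195560804). Chromosomes 12, 14, 13 and 5 followed with 41.6-, 41.9-, 42.2- and 42.4-fold. Above the median stood, outside the leading 10, chromosome 4 at 89.2-fold (1200487 to 1201111), chromosome 21 at 88.2-fold (45579844 to 45580755), chromosome 16 at 85.9-fold (89798819 to 89799544), chromosome 9 at 76.3-fold (139759644 to 139760713) and chromosome 19 at 68.7-fold (33210882 to 33211774). These are single peaks of replicate 1 without an error.

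The widest mid late intervals were of another kind, broad and moderately enriched. The widest interval of all 6 classes was mid late, 32112 bp on chromosome 8 from 145718006 to 145750117, with a 10.1-fold peak in 13 shared pieces that covered 75.0% of it. The second, also on chromosome 8, spanned 20840 bp from 144946447 to 144967286 at 12.1-fold. The next were 20082 bp on chromosome 22 from 50893140 to 50913221 (8.57-fold) and 18778 bp on chromosome 22 from 19957716 to 19976493 (8.23-fold). The fifth, 17751 bp on chromosome 19 from 36782959 to 36800709, was weakly enriched at 3.81-fold, lay in 17 pieces of 2 peaks and was covered to 33.5%. The first 4 lay in the outer 5 Mb of their chromosome, and the fifth 22.3 Mb from the nearer end. The fourth lies 3.90 Mb from the first interval of chromosome 22, where the short arm is mostly absent from the assembly, and so not near a chromosome tip.

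The libraries overlapped to an intermediate degree in mid late intervals. Peaks of both covered 56.7 ± 2.78% of the bases of mid late intervals, against 57.8 ± 2.50% for mid early and 53.7 ± 3.18% for late (mean ± SD of chromosome values, n = 23). Only intervals of the intersected lists enter this share, so peaks of 1 library alone are not counted, and wider intervals weigh more. The difference was −1.02 percentage points from mid early, lower on 18 of 23 chromosomes (permutation test, adjusted p = 0.00772), and 3.02 points from late, higher on 20 of 23 (permutation test, adjusted p = 0.00223). Retention was estimated from the running numbers of the replicate 1 peaks: of the numbers between neighbouring listed peaks of 1 class, it is the share that is listed. It was 72.6 ± 3.94% for mid late, against 74.9 ± 3.18% for mid early and 69.4 ± 4.42% for late (n = 23). Both differences, −2.35 and 3.15 points, passed the permutation test (adjusted p = 2.0e-04 and 3.2e-04 over this pair, which was added with the data in view), on 18 and 19 of 23 chromosomes. The −log10 q of the peaks differed in the same order, and its part in retention was not tested.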

How the data were processed

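The members and the measures were chosen with earlier results of these data known. Per the submitters' processing notes, BWA and MACS2 were used with hg19, with no version, parameter or control library stated. The authors deposited a broad peak list, whose fold enrichment (a ratio) and −log10 q each have 1 value per replicate 1 peak, and 6 interval lists whose deposited score is a constant. The deposited score of the peak list was not used. The timing data were not analysed here, and the labels and files used here do not state the rule behind the classes. The deposited starts and ends count from 0 and are printed here counting from 1.

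Each named interval was counted once and joined to the peak sharing most bases. Chromosome medians with at least 20 intervals per class entered a permutation test (random sign flips, two-sided, 100000 resamples, or 20000 when a chromosome was left out), adjusted by Benjamini-Hochberg within its family. The p-values inside windows and at like −log10 q are given unadjusted. The test was also tried on widths with class labels shuffled among the single intervals of a chromosome. Shuffling removes the clustering of classes along the chromosome, so this trial cannot show how the test behaves on the real lists. Named intervals are the 10 of highest fold, the strongest of each chromosome, the 5 widest, and the 3 runs of most intervals and of longest span. The gene and sequence tables at hand are of another genome build, so the planned gene and sequence context was not run. Tables were handled with pandas 2.3.3 in Python 3.11.15, exact intervals came from scipy 1.17.1, resampling from numpy 2.4.6 and plots from matplotlib 3.10.9.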

Additional observations from a re-analysis of the deposited data

Results flagged for a closer look

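The mid late list also named 33 intervals on chromosome Y, a chromosome that none of the comparisons used. They lay between positions 143398 and 58997304, with a median width of 405 bp, a median fold of 5.39 and folds from 2.94 to 16.5. All classes together named 95 intervals there.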

How the results depend on the processing

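No paired analysis was possible because both libraries form 1 group and are deposited as their intersection. For the same reason neither library could be left out. Of the 10 comparisons with mid early and late, all kept their direction and their side of the threshold on autosomes only, with intervals of at least 200 bp, without the first and last 5 Mb and with every line counted. Restricting −log10 q to 5 and above lost the fold against mid early (log2 −0.019), and that against late was 0.035 in place of 0.077. There −log10 q was −0.047 against mid early and 0.086 against late, in place of −0.104 and 0.169, and both passed. Without the first and last 5 Mb, the ratios to mid early were 0.57 for spacing and −0.064 for fold, in place of 0.30 and −0.042. Spacing to the adjacent interval of any class was −1.24 against late, in place of −0.71. Leaving out 1 chromosome at a time changed none of the 10. As averages over 1 Mb windows, the log2 ratios to mid early turned to 0.070 for width, 0.0020 for fold and 0.0034 for −log10 q. Those to late were −0.039, 0.0089 and 0.023. With the mean of log2 values in those windows they were 0.059 and 0.0011 against mid early and −0.010 and 0.016 against late, for width and fold. Inside 500 kb windows they were 0.116, 0.0089 and 0.021 against mid early and −0.144, 0.00089 and −0.0010 against late, for width, fold and −log10 q. Spacing and shared bases were not compared inside windows. The cause was not tested.

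The mid late share was 21.6% at a −log10 q of at least 5, 22.04% on autosomes, 19.7% without the first and last 5 Mb, 19.6% with every line counted and 21.95% by covered bases. Leaving out 1 chromosome at a time gave 21.9% to 23.1%, the highest without chromosome 17. Runs between mid early intervals made up 38.4% where a run also ended at gaps above 100 kb, since this splits runs.

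Of the end comparisons, the difference to late in width reversed to 0.204 at a −log10 q of at least 5, 0.019 with intervals of at least 200 bp, 0.155 with the outer 10 Mb and 0.039 with the short-arm ends of chromosomes 13, 14, 15, 21 and 22 counted with the rest. Without 1 chromosome it ran from −0.062 to 0.029. The difference to late in spacing was −0.0051 with the outer 10 Mb, and that to mid early in fold was lost at a −log10 q of at least 5 (0.036). None of the differences to late had passed the permutation test. Read depth is unknown, so no counting error can be given for a fold.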
